A study of Mus musculus with 22 samples.

Results

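The step examined here is the change in gene expression between day 2 and day 4 after injury in Gr1-negative muscle macrophages, measured as the 3 arrays labelled day 4 Gr1-/Cx3cr1high against the 3 arrays labelled day 2 Gr1-/Cx3cr1high. These are 6 of the 22 arrays of the series, which pairs 4 days (1, 2, 4 and 8) with 2 sorted subsets. The mice were C57B6/J, and all groups shared the same treatment: the Tibialis anterior muscle was injured by injecting cardiotoxin, a venom component that lyses muscle fibres, so that no array comes from uninjured muscle. CD45+ cells were taken from the regenerating muscle with magnetic beads, stained with antibodies to Gr1 and Cx3cr1 and sorted into a Ly6C- F4/80high subset, called Gr1-negative here, and a Ly6C+ F4/80low subset, called Gr1-positive, which carries the label Gr1+/Cx3cr1low. The age and sex of the mice, and how many were pooled for an array, are not given in the labels. Replicates are called biological without further detail, so the p-values measure the spread between these samples, part of which may be technical. All 21789 probe sets that name 1 gene were tested, and a probe set is called higher or lower where limma's Benjamini-Hochberg adjusted p, taken over all of them, is under 0.05. Levels and differences are on the log2 scale throughout, so that a difference of 1 is a 2-fold change, and levels are not compared between genes.

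Monocytes that enter injured muscle first carry high Ly6C and Gr1 and make inflammatory cytokines, and later give rise to Ly6C-low macrophages that engulf dead cells, release growth factors and help new fibres form. These cells change their metabolism and can divide within the tissue while dead fibres are being removed. Gr1 antibodies bind Ly6C and Ly6G, Cx3cr1 is the receptor for fractalkine, and Adgre1 encodes the antigen by which F4/80high cells are named.

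The 22 arrays had median levels between 7.02 and 7.18, and levels over all arrays ran from 2.3432 to 13.949, so that genes near the top can be compressed. The closest 2 arrays differed by a root mean square of 0.233, so none was deposited under 2 names. On the first principal component of all arrays, which holds 41.1% of the variance, the Gr1-negative arrays of day 2 lay at −11.9, 1.3 and −3.8 and those of day 4 at 41.7, 35.6 and 38.3, so that the 2 days did not overlap. The precision is limited by the 3 arrays of each group.

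The sort markers were checked first. Cx3cr1 read 8.96, 9.44 and 9.04 at day 2 and 11.01, 10.44 and 10.97 at day 4. Every array of day 4 lay above every array of day 2, and the gene rose 3.16-fold (log2 difference 1.66 ± 0.25 SE, adjusted p = 0.000183). Adgre1 stood near the top of the scale at 12.26, 12.19 and 12.27 and then 12.45, 12.36 and 12.42, and its difference of 0.17 did not pass (adjusted p = 0.239). Ly6g, which marks neutrophils and is bound by Gr1 antibodies, lay between 5.13 and 5.71 on all 6 arrays with a difference of −0.12 (adjusted p = 0.694). Ly6c1 and Ly6c2 were not analysed here. Of 11 macrophage identity genes measured, Csf1r, the receptor for the macrophage growth factor CSF1, rose by 0.51, and Cebpb, Cd14 and Itgam fell by 0.88, 0.52 and 0.28, Itgam in 3 of the 6 fits that left out 1 array. Lyz2, Cd68 and Spi1 stayed at high levels on every array, with differences of 0.05, −0.10 and 0.03 that did not pass.

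Between day 2 and day 4, 3134 of 21789 probe sets (14.4%) were called: 1717 (7.88%) were higher at day 4 and 1417 (6.5%) lower. The median difference over all probe sets was −0.07. Those called higher name 1607 genes by their brightest probe set and those called lower 1315. More increases than decreases were large: 356 probe sets (1.63%) were called and at least 2-fold higher and 118 (0.542%) were called and at least 2-fold lower. The 3 arrays of day 4 lay wholly above or wholly below those of day 2 for 8971 probe sets (41.2%), and for 3095 of the 3134 called. Leaving out 1 of the 6 arrays at a time kept between 2085 and 2729 calls. Of the 3134 calls, 1641 (52.4%) were kept in all 6 such fits. The count of lower calls was the more sensitive, at 847 without replicate 3 of day 4 and 853 without replicate 3 of day 2.

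**Figure D1:**
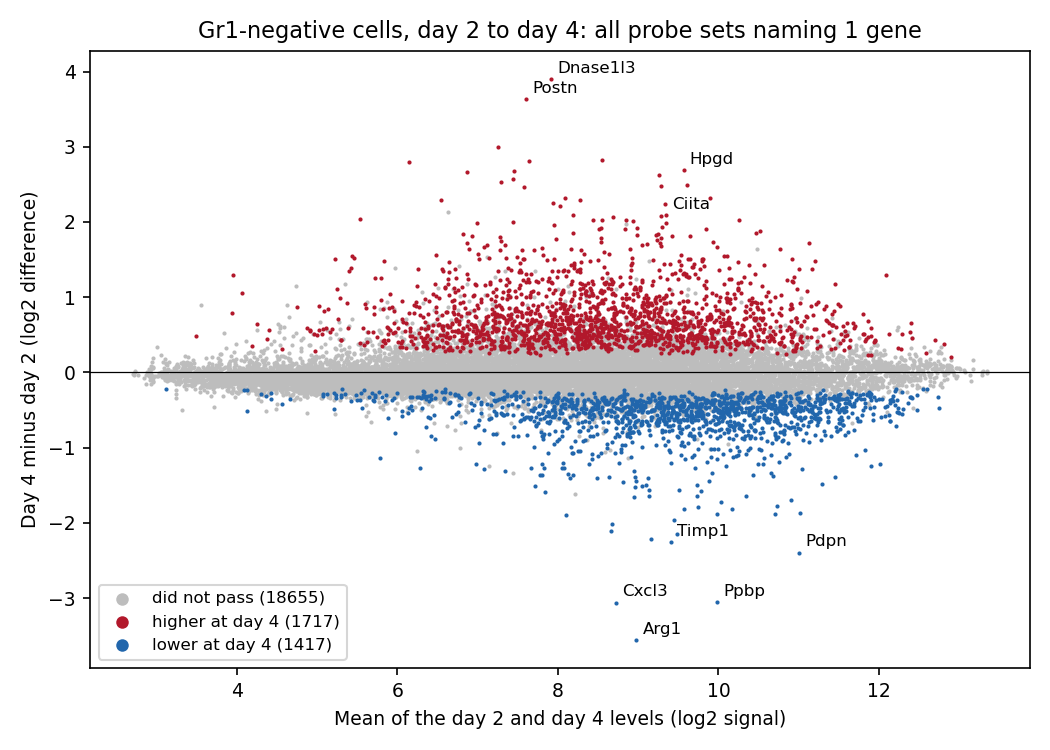
Difference between day 4 and day 2 in Gr1-negative cells (log2, vertical) against the mean of both days (log2 signal, horizontal), 1 point for each of 21789 probe sets that name 1 gene. Red points (1717) are higher and blue points (1417) lower at an adjusted p under 0.05 and grey points did not pass; the largest increase is Dnase1l3 at 3.90 and the largest decrease Arg1 at −3.55.

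The largest decrease was that of Arg1, the arginase that splits arginine into ornithine and urea and a usual marker of alternatively activated macrophages. Arg1 read 10.85, 10.33 and 11.07 at day 2 and 7.90, 7.15 and 6.55 at day 4, a fall of 11.7-fold (log2 difference −3.55 ± 0.33 SE, adjusted p = 2.31e-06). The lowest array of day 2 lay more than 2 log2 units above the highest of day 4. Arg2, the mitochondrial arginase, fell too, from 10.60, 10.31 and 10.77 to 8.02, 8.83 and 8.40 (−2.14 ± 0.30, adjusted p = 0.000108).

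Cxcl3, a chemokine that attracts neutrophils, went from 10.37, 9.77 and 10.63 to 7.22, 7.45 and 6.93 (−3.06 ± 0.34, adjusted p = 1.37e-05). Ppbp, a CXC chemokine also stored in platelets, went from 12.10, 10.96 and 11.47 to 9.74, 7.68 and 7.97 (−3.05 ± 0.62, adjusted p = 0.00218), with replicate 1 of day 4 well above the other two. Cxcl1 fell by 1.87. Pdpn, the membrane glycoprotein podoplanin, fell from 12.45, 11.96 and 12.20 to 10.23, 9.68 and 9.52 (−2.39 ± 0.27, adjusted p = 1.58e-05). Timp1, an inhibitor of matrix metalloproteinases, fell by 2.26 and the proteoglycan Vcan by 2.11. Also among the 15 largest decreases were the Notch ligand Jag1 (fell by 2.21), the activin subunit gene Inhba (fell by 2.01), Rgcc (fell by 1.96), the ectonucleotidase Nt5e (fell by 1.89), the itaconate-making enzyme Acod1 (fell by 1.89), the oxidized LDL receptor Olr1 (fell by 1.88) and coagulation factor F10 (fell by 1.82). All 15 were called in each of the 6 fits that left out 1 array.

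The largest increase was that of Dnase1l3, a secreted DNase made by macrophages and dendritic cells that digests DNA of dead cells. Dnase1l3 read 5.92, 5.96 and 6.02 at day 2 and 9.96, 10.22 and 9.44 at day 4, a rise of 15-fold (log2 difference 3.90 ± 0.26 SE, adjusted p = 1e-07). Its 3 arrays of day 2 were close to each other and far below those of day 4. Hpgd, the enzyme that inactivates prostaglandin E2, rose from 7.87, 8.51 and 8.27 to 10.82, 10.68 and 11.23 (2.69 ± 0.25, adjusted p = 2.31e-06). Adgre4, an adhesion receptor of the same family as Adgre1, rose from 8.10, 7.64 and 8.09 to 10.78, 10.56 and 10.36 (2.62 ± 0.23, adjusted p = 1.97e-06). Gpr34, a G protein-coupled receptor of macrophages and microglia, rose by 2.46 and Apol7c, a member of the apolipoprotein L family, by 2.67.

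Genes known to be induced by interferons made up a further 6 of the 15 largest increases, a grouping made after their values were seen. The GTPase genes Gm4951, Gbp4 and Iigp1 rose by 2.99, 2.81 and 2.57, and Gm4951 and Iigp1 belong to a family whose probe sets can share signal. Ifit3b and Ifit2 rose by 2.66 and 2.49, and the chemokine Cxcl9, induced by interferon gamma, by 2.48.

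The remaining genes of the 15 were Postn, Bgn, Aspn and the imprinted gene Mest, and their arrays of day 4 were widely spread. Postn, a matrix protein made by fibroblasts, read 5.97, 5.59 and 5.80 at day 2 and 10.52, 9.85 and 7.90 at day 4 (3.64 ± 0.80, adjusted p = 0.00407). The small proteoglycan Bgn read 7.62, 6.86 and 6.95 and then 11.05, 10.35 and 8.49 (2.82 ± 0.59, adjusted p = 0.00289). Aspn, of the same proteoglycan family, read 4.78, 4.75 and 4.73 and then 8.90, 7.81 and 5.92 (2.79 ± 0.84, adjusted p = 0.031). In each of the 4, Mest included (9.62, 8.94 and 7.10 at day 4, 2.53), replicate 1 of day 4 was highest and replicate 3 lowest. The mean of 11 fibroblast markers had the same order, at 8.82, 8.31 and 7.31 at day 4 against 6.99, 6.77 and 6.77 at day 2. The part of fibroblast RNA in these 4 increases was not tested. Aspn was called in 1 of the 6 fits that left out an array, and Mest in 5.

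**Figure D2:**
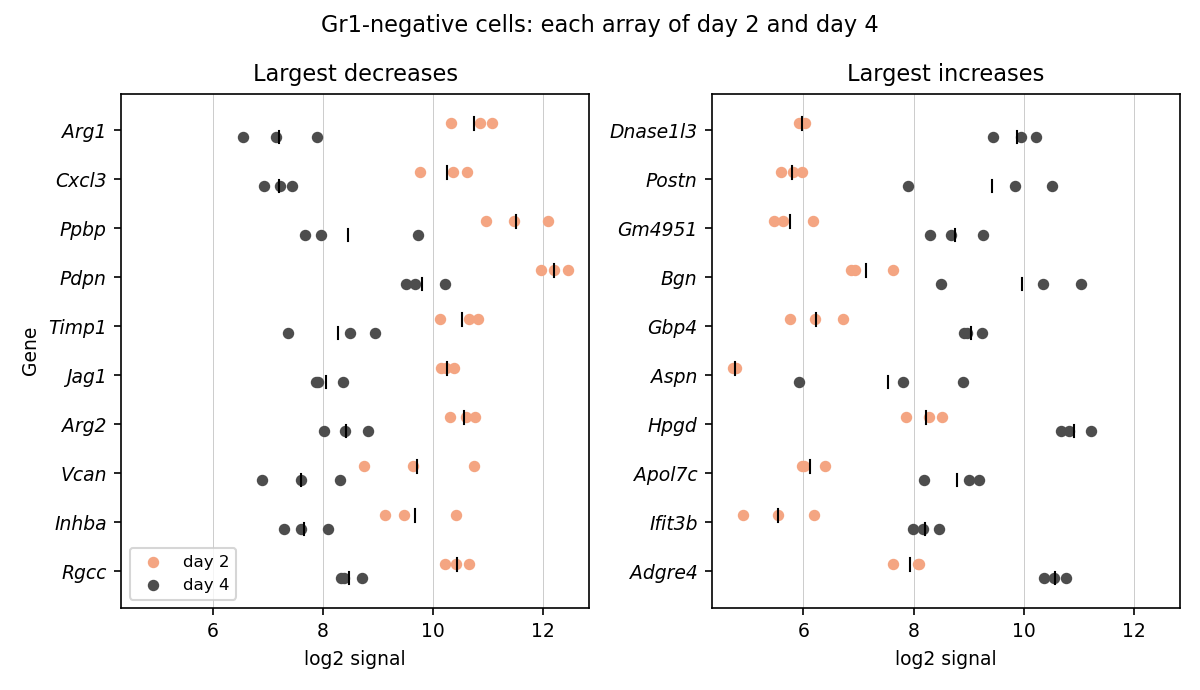
Level on each Gr1-negative array (log2 signal, horizontal) of the 10 genes with the largest decreases (left) and the 10 with the largest increases (right), orange points for the 3 arrays of day 2, dark points for the 3 of day 4 and black bars for the group means. The genes were chosen from those called and without overlap between the days, so the lack of overlap is part of the choice. The points of day 4 spread over more than 2 log2 units for Postn, Bgn and Aspn.

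Markers of other cells that a macrophage gate could hold were read before the gene groups. In bulk samples fewer cells of a type and less RNA per cell cannot be told apart. Of 12 dendritic cell markers, 8 rose and 0 fell, against 7.88% and 6.5% of all probe sets. Their median difference was 0.99, against −0.07 over all probe sets. Their mean was 8.21, 8.42 and 8.56 on the arrays of day 2 and 9.05, 9.70 and 9.58 on those of day 4. Xcr1, a receptor found on conventional dendritic cells that cross-present antigen, went from 7.36, 7.76 and 7.50 to 9.32, 9.85 and 9.54 (2.03 ± 0.17, adjusted p = 1.77e-06). Clec9a, a receptor for dead cells on the same dendritic cells, rose by 1.96, the actin bundler Fscn1 by 1.51 and the cytokine receptor Flt3 by 1.31. Zbtb46, a transcription factor of conventional dendritic cells, stayed between 7.43 and 7.91 on all 6 arrays with a difference of 0.04.

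Of 14 T and NK cell markers, 7 rose and 0 fell (median 1.08), against 7.88% and 6.5% of all probe sets. Without replicate 2 of day 4, 3 were called. The mean of the list was 6.87, 7.04 and 7.09 at day 2 and 7.92, 8.61 and 7.64 at day 4, so that replicate 2 of day 4 was highest. Cd4, the T helper co-receptor that some myeloid cells also make, went from 6.92, 7.15 and 7.31 to 9.30, 9.55 and 9.41 (2.29 ± 0.13, adjusted p = 1.48e-08), with little spread in either group. Nkg7, a granule protein of cytotoxic cells, read 7.36, 7.81 and 7.76 and then 9.35, 10.35 and 8.61 (1.79 ± 0.42, adjusted p = 0.00605). The T cell receptor chain Cd3g rose by 1.67 and granzyme Gzmb by 1.65, whereas Cd3e did not pass (1.01, adjusted p = 0.107). The calls of Cd3g and Gzmb were each kept in 2 of the 6 fits without an array.

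Of 11 fibroblast markers, Postn, Dcn and Sparc rose and 0 fell (median 1.17). Beside this and the marker lists that follow, 7.88% of all probe sets were called higher and 6.5% lower. Dcn read 10.10, 9.38 and 7.70 at day 4 against 7.41, 6.58 and 6.43 at day 2, and Col1a1, Col1a2 and Col3a1 differed by 0.70, 0.72 and 0.37 without passing. Without replicate 2 or 3 of day 2, or replicate 1 or 2 of day 4, 1 of the 3 was called. Among 15 muscle genes 4 rose: Des (0.96), Mylpf (0.62), Myog (0.44) and Actn3 (0.41), of which 2 were called without replicate 2 of day 4. With weights for array quality 7 of 15 muscle genes rose, beside 2861 of all 21789 probe sets. Of 16 neutrophil genes Mmp8 fell by 1.49, S100a8 fell by 1.29 and the G-CSF receptor Csf3r rose by 0.61, while the granule genes Elane, Mpo, Camp and Ngp stayed below 7.1 on all 6 arrays. Among 7 B cell genes Cd79b (1.10) and Cd22 (0.60) rose, and Cd79a, Ms4a1 and Pax5 did not pass. The call of Cd22 was kept in 2 of 6 fits, and 1 of the 2 neutrophil decreases was called without replicate 3 of day 4. Kit alone rose among 12 mast cell and eosinophil genes (1.03). No endothelial gene of 9 and neither of 2 red cell genes was called by limma, and at an unadjusted p under 0.05 1 and 0 of them were.

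Genes of mitosis rose as a group. Of 29 measured, 26 rose and 0 fell, against 7.88% and 6.5% of all probe sets, with a median difference of 0.96. Their mean was 7.38, 7.66 and 7.47 on the arrays of day 2 and 8.77, 8.38 and 8.36 on those of day 4, without overlap. Between 23 and 26 were called when 1 array was left out, and 12 where only the brighter part of all probe sets was tested, which leaves out some members. Most of the work of mitosis was represented: cyclins, kinases, kinetochore proteins, spindle motors and the checkpoint.

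The promoters of the 3 mitosis members with the largest increases that the RefSeq table lists are printed below, each from 250 bases before to 50 bases after the annotated start, on GRCm38.p6 and 5′ to 3′ on the gene's strand. They are shown because genes of the late cell cycle are known to be controlled through paired promoter elements, the CHR element with the letters TTTGAA or, more rarely, TTTAAA, and the CCAAT box bound by NF-Y. Capitals mark each match to CCAAT, to TTTGAA or to TTTAAA on either strand. Ccnb2 lies at chr9:70421505-70421804 on the minus strand, Cenpe at chr3:135212313-135212612 on the plus strand and Plk1 at chr7:122159185-122159484 on the plus strand.
Ccnb2: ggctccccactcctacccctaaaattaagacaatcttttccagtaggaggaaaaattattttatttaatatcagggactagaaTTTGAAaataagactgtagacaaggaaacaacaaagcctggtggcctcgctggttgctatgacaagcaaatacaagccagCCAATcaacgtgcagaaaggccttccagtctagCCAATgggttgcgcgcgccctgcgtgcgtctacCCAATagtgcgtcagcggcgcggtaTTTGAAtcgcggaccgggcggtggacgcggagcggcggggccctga
Cenpe: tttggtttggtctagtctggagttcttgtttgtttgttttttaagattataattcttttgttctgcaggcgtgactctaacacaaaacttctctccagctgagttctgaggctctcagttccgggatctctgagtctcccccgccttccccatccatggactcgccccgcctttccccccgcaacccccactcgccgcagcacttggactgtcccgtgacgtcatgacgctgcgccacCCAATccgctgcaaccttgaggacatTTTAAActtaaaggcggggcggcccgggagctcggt
Plk1: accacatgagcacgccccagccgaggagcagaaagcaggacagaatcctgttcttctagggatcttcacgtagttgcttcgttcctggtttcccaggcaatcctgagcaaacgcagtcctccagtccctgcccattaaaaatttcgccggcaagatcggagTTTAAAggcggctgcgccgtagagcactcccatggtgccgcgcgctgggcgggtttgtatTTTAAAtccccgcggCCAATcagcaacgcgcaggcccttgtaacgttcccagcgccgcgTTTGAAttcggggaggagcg
Ccnb2 holds 3 matches to CCAAT and 2 to TTTGAA, Cenpe 1 to CCAAT and 1 to TTTAAA, and Plk1 1 to CCAAT, 1 to TTTGAA and 2 to TTTAAA. Of the 24 mitosis members with an entry, 18 (75%) hold CCAAT, against 37.9% of 27025 mouse promoters of this length. The same number, 18 (75%), hold TTTGAA, against 18.1%, and 7 (29.2%) hold TTTAAA, against 13.2%. A match is a description of the letters and no measure of binding.

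Ccnb2, the B-type cyclin that activates Cdk1 at the entry into mitosis, read 8.02, 8.75 and 8.30 at day 2 and 10.65, 10.37 and 10.01 at day 4 (1.99 ± 0.27, 3.96-fold, adjusted p = 8.18e-05). Cenpe, a kinetochore motor, read 6.21, 6.33 and 6.11 and then 8.23, 7.54 and 7.63 (1.58 ± 0.21, adjusted p = 6.34e-05). Plk1, the polo kinase, read 7.62, 7.75 and 7.62 and then 9.29, 9.15 and 8.997 (1.48 ± 0.19, adjusted p = 5.09e-05). For all 3 the lowest array of day 4 was more than 1 log2 unit above the highest of day 2. Among the kinases and cyclins, Ccna2 rose by 1.52, Cdk1 by 0.89, Aurkb by 0.89 and Bub1 by 1.31. The spindle motors Kif20a, Kif11, Kif23 and Kif15 rose by 1.46, 1.35, 1.18 and 1.07. Mki67, the proliferation antigen Ki-67, went from 9.11, 8.85 and 8.82 to 10.19, 9.69 and 9.72 (0.94 ± 0.18, adjusted p = 0.0013). Top2a, the topoisomerase that untangles chromosomes, rose by 1.19 on its brighter probe set and differed by −0.38 without passing on the other. Aurka, Cenpa and Ccnf did not pass (0.34, 0.29 and 0.07). The call of Cdk1 was kept in 3 of 6 fits without an array. Ccnb1 was not analysed here.

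Of 29 genes of DNA replication, 4 rose, 1 fell and 24 did not pass, beside 7.88% and 6.5% of all probe sets, with a median of 0.05. The 4 that rose were Gins3 (0.47), the polymerase epsilon subunit Pole (0.43), thymidine kinase Tk1 (0.42) and Mcm10 (0.35); 1 was called without replicate 1 or replicate 3 of day 2, and 2 without replicate 1 of day 4. With weights for array quality 7 were called higher, beside 2861 of all 21789 probe sets. Mcm2, of the helicase ring that opens DNA at origins, fell from 9.22, 9.65 and 9.37 to 9.07, 8.90 and 8.73 (−0.51 ± 0.13, adjusted p = 0.0102). Pcna, the sliding clamp, read 11.64, 11.58 and 11.76 and then 11.56, 11.61 and 11.57, overlapping and with a difference of −0.08 (adjusted p = 0.554). The ring members Mcm3, Mcm4, Mcm5, Mcm6 and Mcm7 differed by −0.24, −0.04, −0.09, −0.24 and 0.28 without passing. Markers of dendritic, T and NK cells were higher on the same arrays of day 4, by medians of 0.99 and 1.08, and their part in the mitosis result was not tested.

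**Figure D3:**
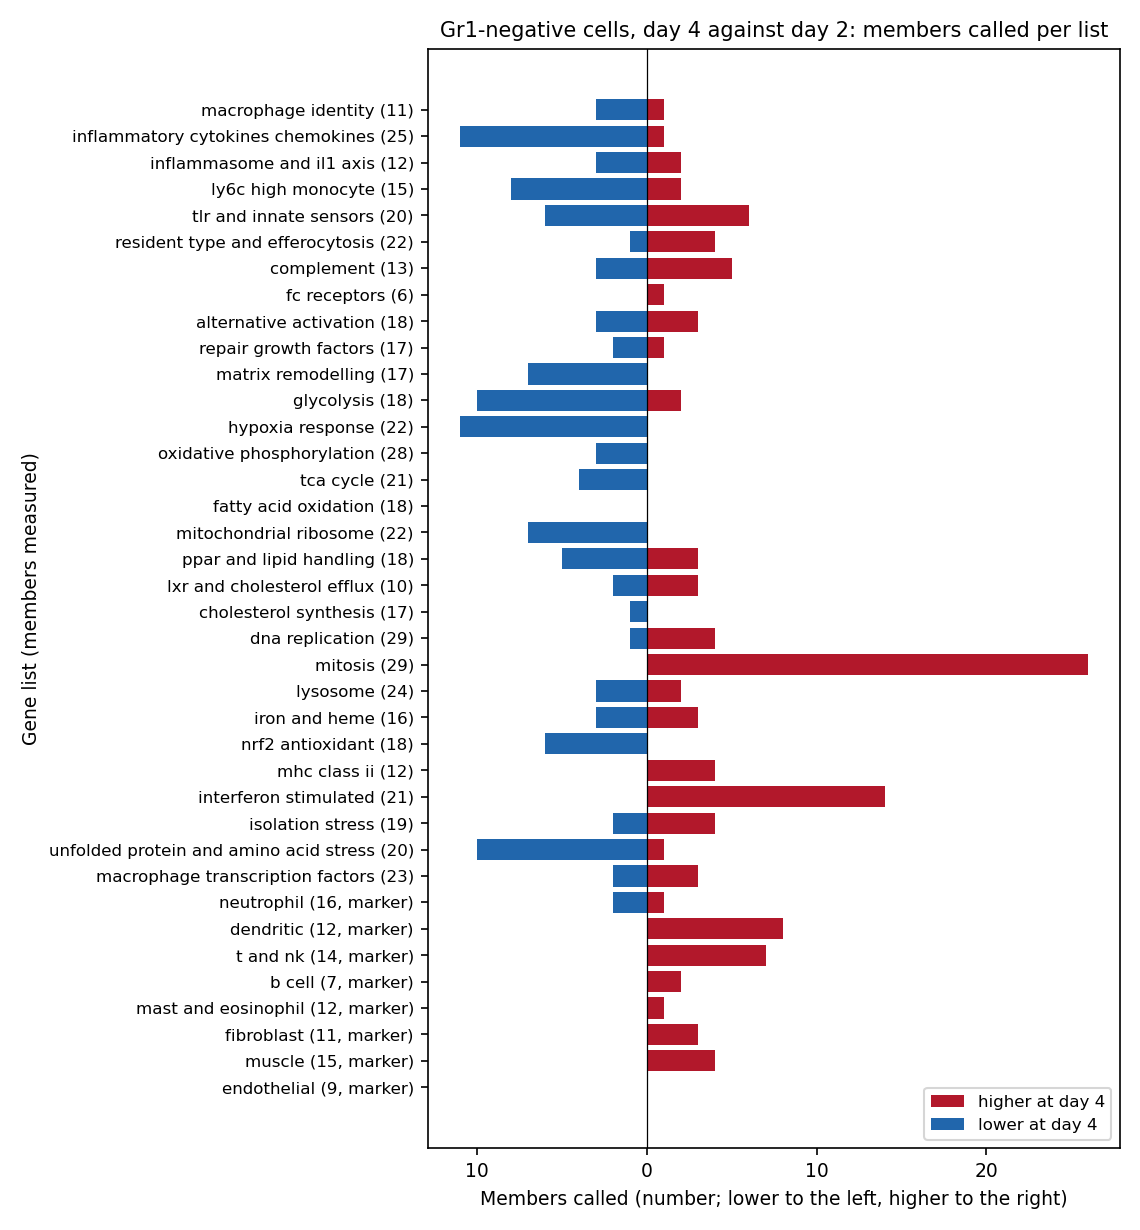
Members called lower (bars to the left) and higher (bars to the right) at day 4 in each gene list with at least 6 measured members (number of members, horizontal; the measured number stands beside each name). Mitosis has 26 of 29 members higher and interferon-stimulated genes 14 of 21, whereas hypoxia response has 11 of 22 lower, the inflammatory list 11 of 25, and glycolysis 10 of 18.

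Interferon-stimulated genes formed the other large group of increases. Of 21 measured, 14 rose and 0 fell (median 0.94), against 7.88% and 6.5% of all probe sets. Ifit2, an RNA-binding antiviral protein, read 7.40, 8.79 and 8.91 at day 2 and 10.85, 10.65 and 11.05 at day 4 (2.49 ± 0.52, adjusted p = 0.00267). Mx1, an antiviral GTPase, read 6.70, 7.42 and 7.68 and then 8.88, 8.97 and 9.52 (1.86 ± 0.40, adjusted p = 0.00337). In both genes replicate 1 of day 2 was the lowest array, and all 3 of day 4 lay above all 3 of day 2. The transcription factors of the pathway rose together, Stat2 by 1.40, Irf7 by 1.51 and Irf9 by 0.50, as did the sensor Ddx58 (1.13) and the nucleotide synthetases Oas2 (1.42) and Oas3 (1.27). The list had a mean of 9.19, 9.74 and 9.92 at day 2 and 10.46, 10.64 and 10.76 at day 4. Without replicate 1 of day 2, and also without replicate 3 of day 4, 8 of the 14 were called. The 7 members that did not pass were Cxcl10 (0.36), Rsad2 (0.34), Ifit1 (0.32), Oasl1 (−0.04), Oas1a (0.37), Usp18 (0.94) and Ifih1 (0.40). Ifit and Oas genes are families whose probe sets can share signal.

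Among 12 genes of MHC class II presentation, 4 rose and 0 fell (median 0.32), beside 7.88% and 6.5% of all probe sets. Ciita, the master regulator of class II transcription, read 8.48, 8.27 and 8.16 at day 2 and 10.38, 10.41 and 10.41 at day 4 (2.10 ± 0.17, 4.28-fold, adjusted p = 1.17e-06). The 3 arrays of day 4 were close to each other and well above those of day 2. The peptide-loading genes H2-Ob, H2-Oa and H2-DMa rose by 1.24, 0.96 and 0.68. The class II chains and the invariant chain stood between 12.37 and 13.02 on all 6 arrays, near the top of the scale, and did not pass, with differences of 0.26 for H2-Aa, 0.29 for H2-Ab1, 0.34 for H2-Eb1 and 0.28 for Cd74. The co-stimulatory ligands Cd80 (−0.24) and Cd86 (0.03) did not pass either. Dendritic cell markers were higher on the same arrays, and their part in these values was not tested. With weights for array quality, or with only the compared groups in the fit, 7 of the 12 were called higher. Over all 21789 probe sets those settings called 2861 and 2009 higher.

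Of 25 inflammatory cytokines and chemokines, 11 fell and 1 rose (median −0.50), against 6.5% and 7.88% of all probe sets. Besides Cxcl3 and Cxcl1, Cxcl2 fell by 0.72 and the monocyte attractants Ccl7 and Ccl2 fell by 1.25 and 1.03. Ccl2 read 12.34, 12.25 and 12.43 at day 2 and 11.38, 11.36 and 11.21 at day 4, with little spread (adjusted p = 8.74e-06). Il10, an anti-inflammatory cytokine, fell from 11.03, 11.00 and 11.46 to 9.31, 9.75 and 9.52 (−1.64 ± 0.23, adjusted p = 8.85e-05). Il1a, Lif, the IL-1 receptor antagonist Il1rn, Tnf and the prostaglandin synthase Ptgs2 fell by 1.08, 0.85, 0.72, 0.64 and 0.41. The Tnf call was kept in 1 of 6 fits without an array and that of Ptgs2 in 3. Il12b, a subunit of IL-12 and IL-23, was the member that rose, from 7.14, 7.35 and 7.54 to 7.99, 8.53 and 8.56 (1.02 ± 0.21, adjusted p = 0.00228). The decrease did not extend to every bright cytokine. Il1b read 12.35, 12.17 and 12.51 and then 11.85, 12.52 and 12.44 (−0.08, adjusted p = 0.781) and Ccl3 12.65, 12.74 and 12.77 and then 12.78, 12.97 and 12.94 (0.18, adjusted p = 0.157). Il6 lay between 6.93 and 8.02 on all 6 arrays and did not pass (−0.35).

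In the inflammasome list, which shares Il1a, Il1b and Il1rn with the cytokines, the sensor Nlrp3 fell by 0.79, and Il18 (0.87) and the thioredoxin inhibitor Txnip (1.37) rose, whereas Casp1, Casp4, Gsdmd and Pycard did not pass. Txnip alone of the increases in this list was called in all 6 fits that left out an array, Il18 in 3.

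Genes of Ly6C-high monocytes fell in part: 8 of 15 fell and 2 rose (median −0.67), against 6.5% and 7.88% of all probe sets. Without replicate 3 of day 4, 5 decreases were called. Vcan read 10.75, 8.75 and 9.64 at day 2 and 8.31, 7.61 and 6.89 at day 4 (−2.11 ± 0.39, adjusted p = 0.00109). Fibronectin Fn1 read 12.90, 12.43 and 12.53 and then 11.82, 11.35 and 11.04 (−1.22 ± 0.20, adjusted p = 0.000436). Clec4e, a receptor for dead-cell and mycobacterial ligands, haptoglobin Hp and guanine deaminase Gda fell by 1.39, 1.27 and 1.08. The 2 members that rose were the monocyte chemokine receptor Ccr2 (11.06, 10.94 and 10.96, then 11.73, 11.62 and 11.72, adjusted p = 0.00144) and the integrin Itga4 (1.08). Chil3 (−1.02) and Plac8 (0.54) did not pass. The call of Hp was kept in 2 of 6 fits without an array.

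Sensors of the innate system moved in both directions. Of 20 measured, 6 rose and 6 fell (median 0.03), beside 7.88% and 6.5% of all probe sets. Those that rose were Clec7a and 5 Toll-like receptors: Tlr9 (1.28), Tlr8 (0.73), Tlr7 (0.68), Tlr1 (0.67) and Tlr6 (0.50). Tlr7, Tlr8 and Tlr9 read nucleic acids inside endosomes. Tlr9 read 10.24, 10.15 and 10.50 at day 2 and 11.50, 11.61 and 11.61 at day 4 (adjusted p = 1.12e-05) and stood apart on every array. The surface receptors Clec4d, Trem1, Clec4e, Cd14 and Tlr2 fell by 1.78, 1.45, 1.39, 0.52 and 0.35, as did the NF-kB inhibitor Nfkbia (by 0.32). Tlr4 and its partners Ly96 and Myd88 did not pass (0.29, 0.06 and 0.26). Without replicate 1 of day 2, 2 of the 6 increases were called, and without replicate 3 of day 4, 3. Tlr6 was called in 1 of 6 such fits, and Tlr7 and Tlr2 in 2.

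Among 13 complement genes 5 rose and 3 fell (median 0.26), beside 7.88% and 6.5% of all probe sets. Factor B, Cfb, rose from 7.77, 8.55 and 8.87 to 9.995, 10.16 and 10.38 (1.78 ± 0.32, adjusted p = 0.000954), C4b by 0.83, C1qa by 0.78 and Itgax by 0.77. Serping1, the C1 inhibitor, read 8.89, 8.22 and 6.79 at day 4 against 6.25, 6.29 and 6.27 at day 2, the order that the fibroblast markers had, and was called in 1 of the 6 fits without an array. Leaving out any 1 array left 3 of the 5 increases, C1qa being called in 3 of these fits and Itgax in 2. C5ar1, the C5a receptor, fell by 0.75, properdin Cfp by 0.33 and Itgam by 0.28, and 1 of these 3 was called without replicate 3 of day 2 or replicate 1 of day 4. Of 6 Fc receptor genes 1 rose, the inhibitory receptor Fcgr2b (0.48), and 0 fell, beside 7.88% and 6.5% of all probe sets.

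Genes of glucose uptake and glycolysis fell. Of 18 genes measured, 10 fell and 2 rose (median −0.45), against 6.5% and 7.88% of all probe sets. That was the highest share of decreases among the gene lists described here. The promoters of the 3 members with the largest decreases are shown because hypoxia-inducible factors, which drive many of these genes, bind the core letters ACGTG. Capitals mark ACGTG on either strand; the E-box CACGTG contains these letters. The windows are those used for mitosis, from RefSeq on GRCm38.p6: Slc2a1 at chr4:119108495-119108794, Slc16a3 at chr11:120948817-120949116 and Pgam1 at chr19:41911621-41911920, all on the plus strand.
Slc2a1: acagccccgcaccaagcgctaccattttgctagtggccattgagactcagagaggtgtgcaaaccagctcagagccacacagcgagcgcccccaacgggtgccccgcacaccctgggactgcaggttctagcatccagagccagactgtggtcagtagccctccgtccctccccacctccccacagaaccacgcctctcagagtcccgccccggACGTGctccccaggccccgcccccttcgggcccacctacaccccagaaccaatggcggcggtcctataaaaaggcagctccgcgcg
Slc16a3: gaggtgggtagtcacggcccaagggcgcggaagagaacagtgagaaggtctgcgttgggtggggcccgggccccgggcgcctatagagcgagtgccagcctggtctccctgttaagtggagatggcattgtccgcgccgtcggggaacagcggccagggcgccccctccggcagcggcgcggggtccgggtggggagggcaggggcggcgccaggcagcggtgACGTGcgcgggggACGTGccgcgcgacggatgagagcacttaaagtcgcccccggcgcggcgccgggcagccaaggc
Pgam1: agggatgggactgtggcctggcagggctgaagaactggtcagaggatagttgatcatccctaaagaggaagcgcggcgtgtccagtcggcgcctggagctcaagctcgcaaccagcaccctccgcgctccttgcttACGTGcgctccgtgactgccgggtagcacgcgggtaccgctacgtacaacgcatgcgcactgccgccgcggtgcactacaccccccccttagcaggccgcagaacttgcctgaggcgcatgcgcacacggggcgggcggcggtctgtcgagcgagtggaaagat
Slc2a1 and Pgam1 hold 1 match each and Slc16a3 holds 2. Of 17 glycolysis members with an entry, 10 (58.8%) hold ACGTG, against 19.7% of 27025 promoters, and 2 (11.8%) hold CACGTG, against 7.24%. In the mitosis list 7 of 24 (29.2%) hold ACGTG. Of the motifs marked in the mitosis promoters, CCAAT is in 6 of the 17 glycolysis promoters (35.3%), and TTTGAA and TTTAAA are in 0. The AP-1 letters TGANTCA, where N is any base, are in 0 promoters of either list, against 7.93% of all. The CRE letters TGACGTCA are in 2 of 24 mitosis and 1 of 17 glycolysis promoters (1.88% of all), and the NF-kB letters GGGANTTTC are in 1 and 0 (1.15%). Of the E2F letters, TTTGGCGC is in 1 and 0 (0.537%) and TTCCCGCC in 0 of both lists (2.24%).

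Slc2a1, the glucose transporter GLUT1, read 12.35, 11.83 and 11.89 at day 2 and 10.53, 10.56 and 10.56 at day 4 (−1.48 ± 0.15, 2.78-fold lower, adjusted p = 8.5e-06). Slc16a3, the lactate exporter MCT4, read 10.75, 10.60 and 10.79 and then 9.48, 9.40 and 9.51 (−1.25 ± 0.18, adjusted p = 0.000112). Pgam1, a phosphoglycerate mutase, read 11.98, 12.00 and 12.05 and then 11.05, 11.42 and 11.16 (−0.80 ± 0.14, adjusted p = 0.00083). None of the 3 overlapped between the days. Pkm, Hk3, Pgk1, Pfkl, Tpi1, Ldha and Aldoa fell by 0.76, 0.74, 0.70, 0.61, 0.47, 0.44 and 0.36. These decreases lay at several steps between hexokinase and lactate, and Gpi1, Gapdh and Eno1 were not analysed here. The 2 members that rose were the muscle-type phosphofructokinase Pfkm (0.44) and the bifunctional enzyme Pfkfb4 (0.75), of which Pfkfb4 alone was called in all 6 fits without an array. Hk1 differed by 0.24 on its brighter probe set without passing and by −0.36 on the other, which was called lower (adjusted p = 0.0489).

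Of 22 genes of the hypoxia response, 11 fell and 0 rose (median −0.49), against 6.5% and 7.88% of all probe sets. Egln3, an oxygen-sensing prolyl hydroxylase, fell by 1.59. Vegfa, the endothelial growth factor, read 11.94, 11.52 and 11.60 at day 2 and 10.30, 10.39 and 10.52 at day 4 (−1.28 ± 0.15, adjusted p = 2.39e-05). Hilpda, the oxidase Ero1a, Ak4 and Ndrg1 fell by 1.14, 1.04, 0.94 and 0.89, and Mxi1, Ddit4, Bnip3 and P4ha1 by 0.69 to 0.49. The calls of Ak4 and Bnip3 had adjusted p = 0.0497 and 0.048 and were kept in 1 and 0 of 6 fits without an array, and that of Ddit4 in 3. The less bright probe sets of Ak4 and Bnip3 differed by −0.38 and −0.48 without passing (adjusted p = 0.106 and 0.0591). Pdk1, Car9 and Bnip3l did not pass (−0.16, 0.07 and 0.02).

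The mitochondrial genes that passed fell, as did 6.5% of all probe sets. Of 28 subunits of the respiratory chain 3 fell and 0 rose (median −0.22): cytochrome c1 Cyc1 (−0.63), cytochrome c Cycs (−0.52) and Ndufab1 (−0.46). Leaving out 1 array gave between 1 and 5, with 1 without replicate 3 of day 2, replicate 1 of day 4 or replicate 3 of day 4 and 5 without replicate 1 of day 2. The citric acid cycle list of 21 genes also holds the itaconate-making enzyme Acod1, which is not a step of the cycle. In this list 4 fell: Acod1, the dehydrogenase subunit Idh3a (−0.79), Mdh2 (−0.48) and Sucla2 (−0.44), the last in 1 of 6 fits without an array. Of 22 genes of mitochondrial translation and transcription 7 fell and 0 rose (median −0.34), led by Mrps28, which read 9.01, 9.16 and 9.18 and then 8.19, 8.27 and 7.86 (−1.01 ± 0.13, adjusted p = 3.86e-05). With weights for array quality, 18 respiratory chain genes, 16 of mitochondrial translation and transcription and 10 of the citric acid cycle were called lower. The same weights called 3726 of all 21789 probe sets lower, against 1417 in the main fit. No gene of fatty acid oxidation among 18 was called by limma, and at an unadjusted p under 0.05 0 were higher and 3 lower.

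**Figure D4:**
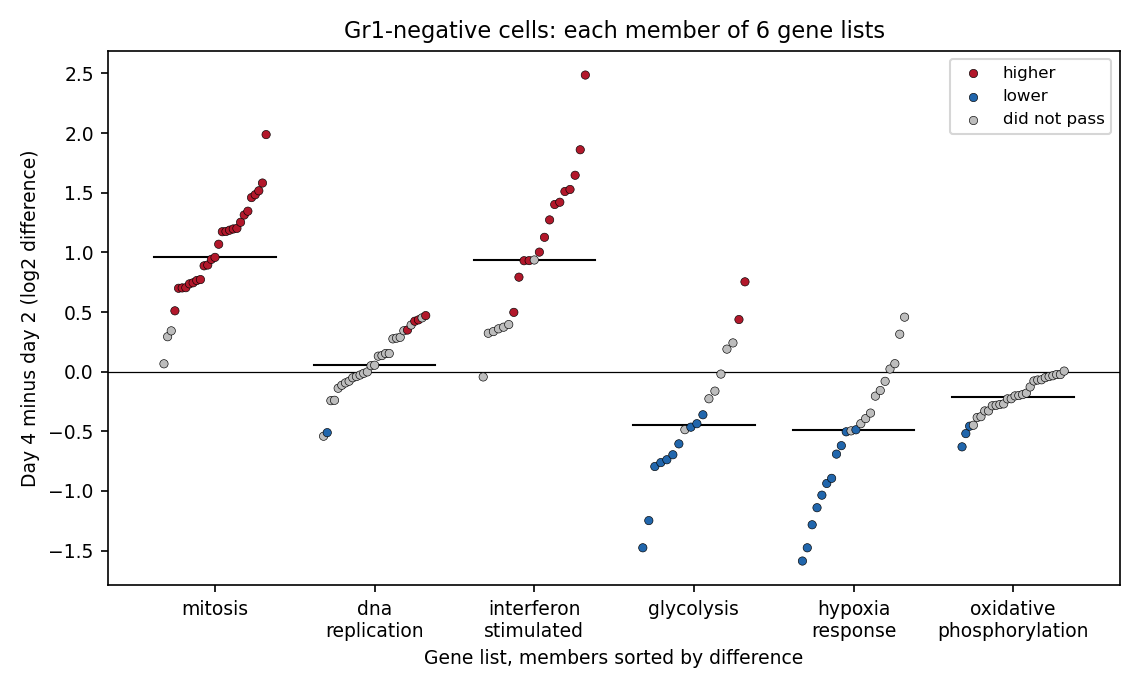
Difference between day 4 and day 2 (log2, vertical) of every measured member of 6 gene lists (horizontal), sorted within a list, red for members called higher, blue for those called lower and grey for the rest, with a black line at the list's median. Mitosis members lie above 0 from 0.07 to 1.99, replication members around 0, and most glycolysis and hypoxia members below 0, down to −1.59.

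Genes of stress defence fell in part. Of 18 antioxidant genes under Nrf2, 6 fell and 0 rose (median −0.26), beside 6.5% and 7.88% of all probe sets. With weights for array quality 10 fell, beside 3726 of all 21789 probe sets. The 6 were the cystine importer Slc7a11 (−1.57), sulfiredoxin Srxn1 (−1.09), thioredoxin reductase Txnrd1 (−1.03), Sod2 (−0.92), Gclc (−0.87) and heme oxygenase Hmox1 (−0.65). Txnrd1 read 10.67, 10.46 and 10.83 at day 2 and 9.65, 9.60 and 9.61 at day 4 (adjusted p = 0.000107). Nfe2l2, which encodes Nrf2 itself, did not pass (0.04). Of 20 genes of the unfolded protein and amino acid response, 10 fell and 1 rose (median −0.29), among them Creld2 (−0.77), the serine synthesis enzyme Psat1 (−0.77) and the disulfide isomerases Pdia6 (−0.73) and Pdia4 (−0.59). Atf6, a sensor of that response, was the member that rose (0.25, kept in 2 of 6 fits without an array), and its chaperone target Hspa5 did not pass (−0.20). Of the 10 decreases, 6 were called without replicate 1 or 3 of day 2 or replicate 1 of day 4, and 5 without replicate 3 of day 4.

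Markers of alternative activation did not move together: 3 of 18 rose and 3 fell (median 0.15), beside 7.88% and 6.5% of all probe sets. With weights for array quality or with only the compared groups in the fit 7 rose. Over all 21789 probe sets those settings called 2861 and 2009 higher. Il10ra, the IL-10 receptor, rose from 10.31, 10.19 and 10.19 to 11.45, 11.32 and 11.63 (1.23 ± 0.11, adjusted p = 2.31e-06). Socs2 rose by 1.57 on its brighter probe set and differed by 0.33 without passing on the other, and the chemokine Ccl22 rose by 0.99. Arg1 fell as given above, and transglutaminase Tgm2 and Klf4 fell by 0.59 and 0.40, the last kept in 0 of 6 fits without an array. Retnla, a secreted protein induced by IL-4, read 5.35, 5.68 and 5.66 and then 7.37, 7.93 and 7.80. Its difference of 2.14 ± 0.71 missed the threshold (adjusted p = 0.0502). The mannose receptor Mrc1 read 11.47, 11.52 and 11.52 and then 11.78, 11.23 and 11.53 (0.01, adjusted p = 0.984).

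Of 17 growth factors of repair, 1 rose and 2 fell (median −0.01), beside 7.88% and 6.5% of all probe sets. Pdgfb, a subunit of platelet-derived growth factor, rose from 8.19, 8.52 and 8.48 to 9.65, 9.08 and 9.86 (1.13 ± 0.18, adjusted p = 0.00038). Inhba and Vegfa fell as given above. Igf1, which supports fibre growth, read 11.42, 11.33 and 11.31 and then 11.46, 11.23 and 11.28 (−0.03, adjusted p = 0.962), Gdf3 differed by −0.21 and Tgfb1 by 0.13, none of them passing.

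Of 17 genes of matrix remodelling 7 fell and 0 rose (median 0.01), beside 6.5% and 7.88% of all probe sets. Mmp19 read 11.85, 11.51 and 11.89 at day 2 and 9.95, 10.11 and 10.10 at day 4 (−1.70 ± 0.20, adjusted p = 2.07e-05). Beside Timp1, the surface proteoglycan Sdc1 fell by 1.82, the collagenase Mmp8 fell by 1.49, the sheddase Adam8 by 1.09, the fibronectin receptor chain Itga5 by 0.94 and the urokinase receptor Plaur by 0.65. Mmp12, Mmp13 and Mmp14 did not pass. Mmp9 read 11.06, 8.91 and 8.64 at day 4, with replicate 1 far above the rest, against 9.34, 8.50 and 8.63 at day 2 (0.72, adjusted p = 0.449).

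Among 22 genes of resident-type macrophages and of the uptake of dead cells, 4 rose and 1 fell (median 0.25), beside 7.88% and 6.5% of all probe sets. Axl, a receptor for dead cells bridged by Gas6, read 9.17, 9.70 and 9.87 at day 2 and 11.15, 11.51 and 11.73 at day 4 (1.88 ± 0.32, adjusted p = 0.000522). Pros1 rose by 1.21. Hpgd and Gpr34 were the other increases. The related receptor Mertk did not pass (10.64, 10.95 and 10.96, then 11.22, 11.32 and 11.32, adjusted p = 0.185), nor did Gas6 (0.24), Trem2 (0.20), Cd163 (0.27) or Timd4 (0.18). The scavenger receptor Cd36 fell from 12.32, 12.31 and 12.47 to 11.78, 11.84 and 11.73 (−0.58 ± 0.13, adjusted p = 0.00342).

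Lipid genes moved in both directions. Of 18 genes of PPAR targets and lipid handling 3 rose and 5 fell (median −0.09), beside 7.88% and 6.5% of all probe sets. The phospholipid transfer protein Pltp rose by 1.30 and the desaturases Scd1 and Scd2 by 1.11 and 0.92. Fabp4, Cd36, Pparg, Fabp5 and Plin2 fell by 0.92, 0.58, 0.47, 0.33 and 0.32. Pparg, the nuclear receptor that controls several of the others, read 10.94, 11.09 and 10.99 and then 10.30, 10.58 and 10.74 (adjusted p = 0.0484), and its call was kept in 1 of 6 fits without an array. Fabp5 was kept in 1 too, and 3 of the 5 decreases were called without any 1 of the arrays of day 2 or without replicate 1 of day 4. Of 10 genes of LXR and cholesterol export, Abcg1, Apoc1 and Mylip rose by 0.91, 0.84 and 0.79, and Nceh1 and Npc1 fell by 0.33 and 0.30, Npc1 in 0 of 6 fits without an array. The rise of Apoc1 was 0.54 without replicate 1 of day 4 (adjusted p = 0.115) and its call was lost without replicate 1 of day 2 as well (adjusted p = 0.0716) and with only the compared groups in the fit (adjusted p = 0.0508). Of 17 genes of cholesterol synthesis 1 fell, the epoxidase Sqle (−0.85), beside 6.5% of all probe sets.

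Of 16 genes of iron and heme 3 rose and 3 fell (median −0.13), beside 7.88% and 6.5% of all probe sets. The iron exporter Slc40a1 (ferroportin) read 6.87, 7.21 and 7.21 at day 2 and 9.55, 8.97 and 8.08 at day 4 (1.77 ± 0.49, adjusted p = 0.019), again with replicate 1 highest and replicate 3 lowest at day 4, and it was called in 3 of 6 fits without an array. Ceruloplasmin Cp and Hfe rose by 1.82 and 1.37. The importer Slc11a2, Hmox1 and the heme exporter Flvcr1 fell by 0.65, 0.65 and 0.51. Among 24 lysosome genes 2 rose and 3 fell, all by less than 0.8, beside 7.88% and 6.5% of all probe sets. The cathepsins Ctsb, Ctsd and Ctss did not pass (0.04, −0.03 and 0.10). Of the 2 lysosome increases 1 was called without replicate 1 or 3 of either day.

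Of 23 transcription factors of macrophages 3 rose and 2 fell (median 0.12), beside 7.88% and 6.5% of all probe sets. With weights for array quality 7 rose, beside 2861 of all 21789 probe sets. Irf8, needed for monocyte and dendritic cell development, rose from 10.09, 10.47 and 10.07 to 11.05, 10.93 and 11.17 (0.84 ± 0.16, adjusted p = 0.00135), and Klf2 and Nfix rose by 0.52 and 0.45. Cebpb read 11.25, 11.09 and 11.12 and then 10.21, 10.35 and 10.26 (−0.88 ± 0.15, adjusted p = 0.000447), and Klf4 fell by 0.40. Maf (0.32), Irf5 (0.13) and Bhlhe41 (−0.52) did not pass. Without replicate 1 of day 2, 1 of the 3 increases was called, and Klf4 was called in none of the 6 fits without an array. Among 19 genes that respond to cell isolation Btg2, Ier2, Egr1 and Jun rose by 0.88, 0.65, 0.56 and 0.51, Fosl1 and Ier3 fell by 1.40 and 0.60, and Fos, Junb and Dusp1 did not pass. Without replicate 3 of day 2, 2 of those 4 increases were called, and 1 of the 2 decreases without replicate 1 of day 2 or replicate 3 of day 4.

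The place of the step in the whole course was read from the Gr1-negative arrays of day 1 and day 8. These comparisons share the arrays of day 2 or day 4 with the step, so that only the values of named genes are given. Over all probe sets 4.67% were called between day 1 and day 2 and 9.78% between day 4 and day 8. Arg1 had a mean of 12.03 ± 0.30 at day 1, 10.75 ± 0.38 at day 2, 7.20 ± 0.67 at day 4 and 6.88 ± 0.20 at day 8 (SD, n = 3 each), so that it fell between days 1 and 2 as well (adjusted p = 0.03) and its difference after day 4 did not pass (adjusted p = 0.544). Vegfa went from 11.69 at day 2 to 10.40 at day 4 and 11.10 at day 8, a rise after day 4 of 0.69 (adjusted p = 0.0119). Cxcl3, Il10 and Mmp19 also rose between day 4 and day 8, by 1.27, 1.35 and 1.39.

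Ccnb2 was highest at day 4, with means of 7.32, 8.36, 10.34 and 9.09 at days 1, 2, 4 and 8, and its steps before and after were both called (adjusted p = 0.0333 and 0.0108). Xcr1 too fell after day 4, by 2.10 (adjusted p = 7.21e-06), and Dnase1l3 by 1.09 (adjusted p = 0.0165) from 9.87 to 8.78, still above its 5.97 of day 2. Hpgd, Axl and Ciita had differences of 0.18, 0.28 and −0.24 after day 4 that did not pass. Adgre4 had fallen by 1.98 between day 1 and day 2 (adjusted p = 0.000264) before its rise. Retnla, which missed the threshold between days 2 and 4, rose by 2.77 between days 4 and 8 (adjusted p = 0.023).

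**Figure D5:**
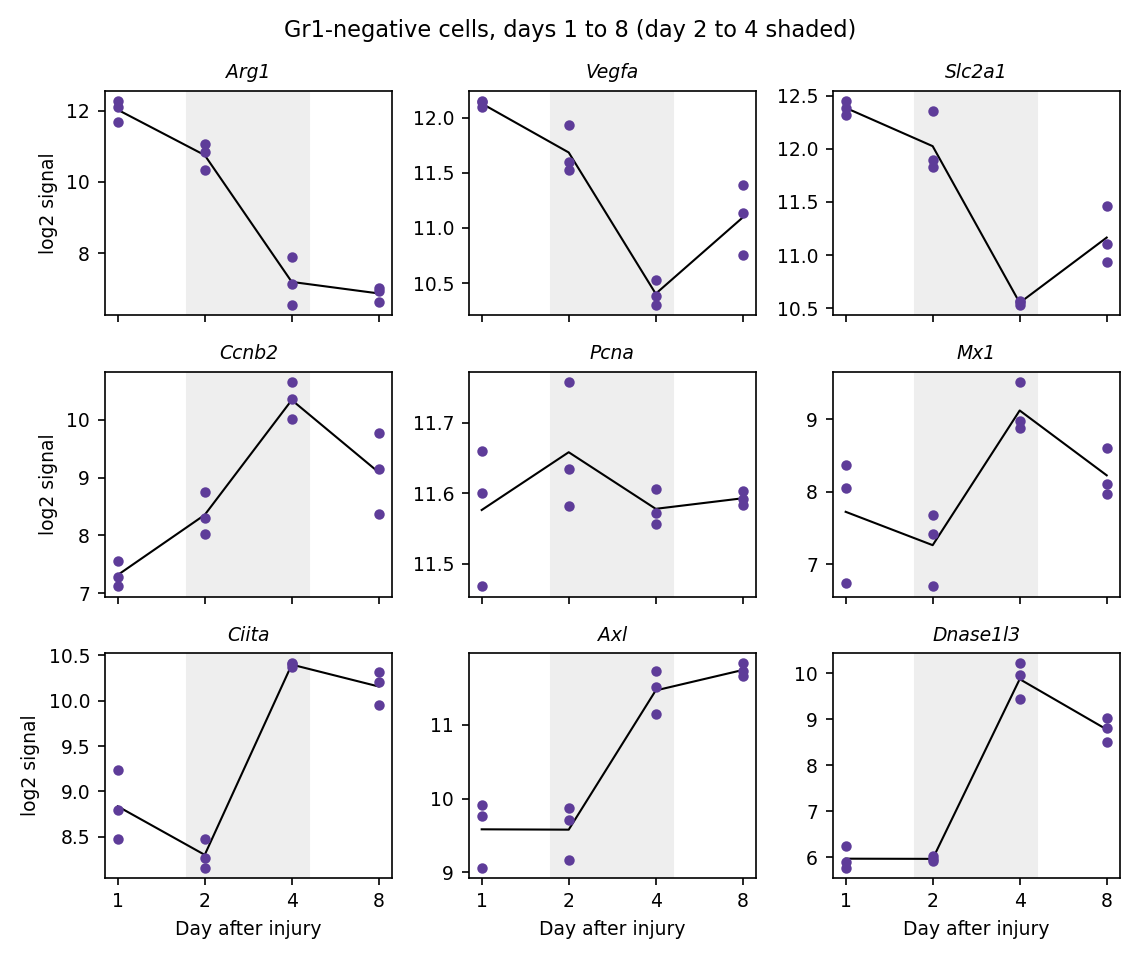
Level on each Gr1-negative array (log2 signal, vertical, with a scale of its own in each panel) of 9 genes by day after injury (1, 2, 4 and 8, horizontal, evenly spaced), points for single arrays and lines through the group means of 3 arrays. Arg1 falls from 12.03 at day 1 to 6.88 at day 8 in the means, Ccnb2 is highest at day 4, and Pcna spans a narrow range of levels.

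The same step was then read in the Gr1-positive subset, whose 6 arrays of days 2 and 4 gave none of the Gr1-negative means above. The 2 steps are not independent. All arrays entered a common fit, so that both tests share its estimate of the spread. Same-numbered arrays of the 2 subsets also deviated together on these days, with correlations from 0.382 to 0.638. The overlap of calls is therefore not a separate repeat of the step. In Gr1-positive cells 4076 probe sets (18.7%) were called, 2457 (11.3%) higher and 1619 (7.43%) lower. Of the calls in Gr1-negative cells, 2183 (69.7%) were called in the same direction in Gr1-positive cells, where they make up 53.6% of the calls, and 2 were called in opposite directions. Cx3cr1 rose by 1.66 in that subset as well, and Arg1 fell by 2.51, Dnase1l3 rose by 3.11 and Ciita by 2.52. In Gr1-positive cells 20 of 29 mitosis genes and 10 of 21 interferon-stimulated genes rose, 12 of 18 glycolysis genes, 15 of 22 hypoxia genes and 17 of 25 inflammatory genes fell, and 17 of 29 replication genes rose. The resident-type list had 10 members higher there.

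Whether the step differed between the subsets was tested directly, as the Gr1-negative step minus the Gr1-positive step. In the fit without pairing 2 of 21789 probe sets (0.00918%) were called. At an unadjusted p under 0.05, 398 were higher and 750 lower. Where no step differs, a share of 0.05 of all probe sets is expected under that limit, so these are not counts of differences. Xcr1 rose in Gr1-negative cells (2.03) and differed by 0.34 without passing in Gr1-positive cells (difference of the steps 1.69 ± 0.25 SE, adjusted p = 0.0218). Gpat3, an enzyme of triglyceride synthesis, fell in both, by 1.27 and by 2.36 (difference 1.10 ± 0.16, adjusted p = 0.0218). Arrays of the 2 subsets with the same day and number deviated together, and with day and number as a block 173 probe sets (0.794%) were called, 46 higher and 127 lower. The values below come from that blocked fit. With the block as a random effect, at its estimated correlation of 0.281, 37 probe sets were called, 14 higher and 23 lower. Of the 45 named genes and list members called with the fixed block, 14 were called with the random one.

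The helicase ring genes were among the probe sets that differed. Mcm2 differed by −1.03 (adjusted p = 0.0105), Mcm6 by −1.13, Mcm7 by −0.89, Mcm5 by −0.80 and Mcm3 by −0.67, which makes 5 of 29 replication genes. With the random block Mcm2, Mcm5 and Mcm7 were called and Mcm6 and Mcm3 were not (adjusted p = 0.105 and 0.116). In Gr1-positive cells Mcm2 rose by 0.52, Mcm5 by 0.70, Mcm6 by 0.88 and Mcm7 by 1.18. Of the mitosis genes 2 of 29 differed, Kif23 (1.01) and Cenpe (0.61), neither of which was called with the random block (adjusted p = 0.0529 and 0.395).

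Arg1 fell further in Gr1-negative cells (difference −1.05, adjusted p = 0.0106), a call lost with the random block (adjusted p = 0.265). Hypoxia genes differed the other way in 3 of 22 members, Ak4 (1.00), Ero1a (0.72) and Bnip3 (0.67), each of which fell further in Gr1-positive cells, and 0 of the 3 were called with the random block (adjusted p between 0.105 and 0.272). Il6 differed by 2.22, having fallen by 2.57 in Gr1-positive cells, whereas its −0.35 in Gr1-negative cells did not pass, and it was called with the random block too (adjusted p = 0.0234). Il12b rose in Gr1-negative cells (1.02) and differed by 0.11 without passing in the other subset (difference 0.91, adjusted p = 0.023; random block, adjusted p = 0.147). Adgre4 (1.82), Gpr141b (1.97), Postn (1.81) and Mmp9 (1.83) were, with Il6, the named genes whose step was most to the higher side in Gr1-negative cells. Adgre4 and Gpr141b were called with the random block, and Postn and Mmp9 were not (adjusted p = 0.59 and 0.314).

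Of 14 T and NK cell markers 7 differed, each toward a larger rise in Gr1-positive cells, where 13 of the 14 rose with a median of 2.43. Nkg7 rose by 4.25 there against 1.79 in Gr1-negative cells (difference −2.46, adjusted p = 0.000264) and Cd3g by 3.54 against 1.67 (difference −1.88, adjusted p = 0.0106). With the random block 2 of the 7 were called, Nkg7 (adjusted p = 0.0276) and Cd8b1 (adjusted p = 0.0316), and Cd3g was not (adjusted p = 0.147). Of 12 dendritic cell markers 4 differed: Xcr1 (1.69) and Itgae (0.68) toward Gr1-negative cells, and Siglech (−1.82) and Cd209a (−1.65) toward Gr1-positive cells. Of these Xcr1 and Siglech were called with the random block, Itgae and Cd209a not (adjusted p = 0.135 and 0.292). The Cd209 genes are a family whose probe sets can share signal, and Cd209d differed by −2.95. Ccr9, a chemokine receptor of gut-homing lymphocytes and plasmacytoid dendritic cells, differed by −1.96 and the sodium pump subunit Atp1b1 by −2.07, and these with Cd209d were called with the random block too. The part of these other cells in the differences between the subsets was not tested.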

How the data were processed

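Gene expression was measured on Affymetrix arrays, made from total RNA with a whole-transcript kit, in 22 samples of 8 groups. The authors deposited a table of log2 values of 35556 probe sets, normalized with RMA per the submitters' processing notes; no version is named, the summary level is not given in the sources used here, and raw scans were not used here. Of these probe sets 21789 name 1 gene in the platform annotation, 21698 of which matched the RefSeq table of GRCm38.p6 by gene identifier; those naming several (1621) or none (12146) were left out. The labels give no scan date or slide. Array data give no counts, so the number of arrays and the signal over background set the precision.

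limma 3.58.1 in R 4.3.3 fitted 1 mean for each group over all 22 arrays, with 18.4 residual degrees of freedom after moderation, and compared groups by its moderated test with Benjamini-Hochberg adjustment over the 21789 probe sets. The script was tested on simulated data. A gene stands for its probe set with the highest mean over all arrays, and 999 genes had more than 1. Deviations from the group means of same-numbered arrays of the 2 subsets correlated at 0.638, 0.382 and 0.476 at day 2 and 0.624, 0.572 and 0.49 at day 4. At day 1 the correlations were lower, at 0.083, 0.381 and 0.239. Number 2 of day 2 did not correlate best with its own number. The labels do not state a pairing. From these values the numbers were taken to pair the subsets within a day, and they were not taken to pair days 2 and 4. The gene lists and their members were chosen with earlier results of these data known. Named genes are the sort markers, the 15 largest called changes in each direction without overlap between arrays, up to 4 called members of each list with the largest change and up to 2 others with the highest mean, 5 genes in each direction with the largest difference between the subsets, and list members named for their role. Promoters were searched on both strands for the motifs given in the text, some of which, such as TTTAAA, are their own reverse complement. Figures were drawn with matplotlib 3.10.9 and tables with pandas 2.3.3 under Python 3.11.15. The alternatives were 1 probe set per gene, bright probe sets alone, quantile normalization, array weights, a variance trend, only the groups compared, replicate number as a fixed or random block, and leaving out each array.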

Additional observations from a re-analysis of the deposited data

Results flagged for a closer look

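The genes below had a day 2 to day 4 step that differed between the subsets by limma's test of the difference itself (Gr1-negative step minus Gr1-positive step, log2, Benjamini-Hochberg adjustment). Without pairing, Xcr1 differed by 1.69, and Gpat3 by 1.10. The steps of Xcr1 were 2.03 (Gr1-negative) and 0.34 (Gr1-positive), and those of Gpat3 −1.27 and −2.36.

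With day and number as a block, the Gr1-negative step was the higher one for Il6 (2.22, steps −0.35 and −2.57), Gpr141b (1.97, steps 2.09 and 0.12), Mmp9 (1.83, steps 0.72 and −1.11), Adgre4 (1.82, steps 2.62 and 0.80) and Postn (1.81, steps 3.64 and 1.83). The Mmp9 array of day 4 replicate 1 stood at 11.06 and its neighbours at 8.91 and 8.64. The Gr1-negative step was the lower one for Cd209d (−2.95, steps 0.31 and 3.26), Nkg7 (−2.46, steps 1.79 and 4.25), Atp1b1 (−2.07, steps 0.48 and 2.55), Ccr9 (−1.96, steps 0.34 and 2.30) and Cd3g (−1.88, steps 1.67 and 3.54). With the block as a random effect Mmp9, Postn and Cd3g were not called (adjusted p = 0.314, 0.59 and 0.147), and the other 9 were. Groups of 3 arrays are too small for a test of single outlying arrays, so none was made.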

How the results depend on the processing

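The step in Gr1-negative cells (3134 probe sets, 1717 higher and 1417 lower) kept within 1.5 times its counts under every alternative run except array weights, which gave 6587 (2861 higher and 3726 lower), and some fits without 1 array, which gave 2085 to 2729 calls, 1227 to 1580 higher and 847 to 1149 lower. The other alternatives gave 2897 to 3837. For the Gr1-positive step, fitting only the groups compared gave 2519 (1598 higher and 921 lower), array weights gave 3101 lower, and leaving out 1 array gave 3178 to 4109 (1810 to 2509 higher and 1169 to 1727 lower). The difference between the subsets depended most on the setting: 2 calls became 91 with array weights (39 higher and 52 lower), 8 among bright probe sets (4 and 4), 10 after quantile normalization (4 and 6), 37 with a random block (14 and 23) and 0 to 11 without 1 array (0 to 3 higher and 0 to 9 lower). Lower calls were 1 with 1 probe set per gene and 1 with a variance trend. Of the 145 called genes named by the rule, 113 kept their call under every alternative that tested their probe set, and 0 reversed. The fit of bright probe sets did not test some of the 145. Leaving out 1 array lost 11 to 21 of the 145, and each other alternative 0 to 2. Among bright probe sets 12 mitosis genes were called, since fewer members were tested. The cause of the other moves was not tested.

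With day and number as a replicate block, the difference between the subsets was called for 173 probe sets (46 higher and 127 lower). For the step from day 2 to day 4 the arrays share only a number: the correlations of same-numbered arrays were 0.202, −0.017 and −0.031, 1 of 3 arrays correlated best with its own number, and a replicate block gave 3517 calls (1937 higher and 1580 lower).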
